A study of Mus musculus with 28 samples.

Results

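Contacts between the promoter of Gata6 and the rest of chromosome 18, at distances of more than 1 Mb, were described in 5 libraries of 4C-seq, which is circular chromosome conformation capture read by sequencing. In this assay chromatin is fixed, cut and religated, and every fragment joined to 1 chosen fragment, the viewpoint, is amplified and sequenced. The viewpoint was taken as the fragment with most reads, which was chr18:11053305-11053963 (mm10) in all 5 libraries, 0.795 kb past the annotated start of Gata6, a gene for a GATA-family transcription factor of endoderm development. All chromosome 18 fragments with reads at more than 1 Mb from it were kept. These were 945 of 2078 chromosome 18 fragments in the wild-type (WT) AntNPC library, 1877 of 4160 in TFBS AntNPC, 778 of 1683 in CGI AntNPC, 1070 of 2512 in TFBS+CGI AntNPC and 999 of 2542 in CGI ESC. Together the 5 libraries held 3765 different fragments beyond 1 Mb, of 6982 different fragments on the chromosome, and the 13 libraries analysed held 132209 fragment entries in all.

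All cells came from E14Tg2a, a line of mouse embryonic stem cells (ESC), and were either kept as ESC in 2i+LIF medium (day 0) or differentiated to anterior neural progenitor cells (AntNPC, day 5). WT AntNPC carried no insertion. The TFBS, CGI and TFBS+CGI lines carried, knocked into the topologically associating domain of Gata6, parts of the poised enhancer of Sox1 (PESox1): its transcription factor binding sites, its CpG island, or both. CGI ESC is labelled with the CpG island insertion, as CGI AntNPC is. Each condition was 1 library, so differences between conditions have no replicate check and are given without test or p-value. The sources used here do not give whether a knock-in line was 1 clone, and no expression was measured in these files against which the labelled cell state could be checked. CGI ESC is labelled as a library of the insertion viewpoint, but its most read fragment was that of the promoter viewpoint, so it was read as a promoter library. Its insertion was taken from the same label and was not checked.

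A contact profile falls with distance because nearby stretches of 1 DNA molecule meet more often than distant ones. Beyond the domain of a gene, contacts are rare and spread over much of the chromosome, and active, gene-rich chromatin (the A compartment) tends to meet other gene-rich chromatin, while gene-poor chromatin (the B compartment) meets its own kind. Each fragment of a given cell can be captured only once per allele, so at long range the reads of a fragment depend on few ligations and on how far each was amplified, and the number of different fragments is a second measure of contact.

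The libraries held 1023252 to 7429563 reads, of which 85.2% to 95.2% lay on chromosome 18 and 78.1% to 91.0% on the viewpoint fragment itself. In the 8 libraries of other viewpoints, which lie on other chromosomes, 0.147% to 0.589% of the reads lay on chromosome 18. Reads beyond 1 Mb numbered 78664 in WT AntNPC, 83450 in TFBS AntNPC, 39262 in CGI AntNPC, 60201 in TFBS+CGI AntNPC and 28757 in CGI ESC. Reads were amplified without molecular identifiers, so all intervals and limits given here cover counting error only.

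Before the profiles are compared, 3 pairs of libraries stood apart in the fragments they shared beyond 1 Mb. WT AntNPC and TFBS AntNPC shared 654 fragments, which is 69.2% of the first list and 34.8% of the second. CGI AntNPC and TFBS+CGI AntNPC shared 432 (55.5% and 40.4%), and TFBS+CGI AntNPC and CGI ESC shared 464 (43.4% and 46.4%). In contrast, WT AntNPC and CGI AntNPC shared 40 (4.23% and 5.14%), and CGI AntNPC and CGI ESC, which are labelled with the same insertion, shared 119 (15.3% and 11.9%). The fragments shared within the first 3 pairs were strongly unequal: 93.7%, 86.1% and 87.1% of them had at least 10 times the reads in one library of the pair, against 14.3% (CGI AntNPC and CGI ESC) to 70.4% (WT AntNPC and CGI ESC, with 54 shared) in the other 7 pairs. Among the WT and TFBS fragments the median excess was 75.3-fold for the 211 higher in WT and 66.0-fold for the 402 higher in TFBS.

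With at least 10 reads asked for in both libraries, WT and TFBS AntNPC shared 26 fragments in place of 654, of 318 and 1049 such fragments. CGI and TFBS+CGI AntNPC then shared 18, of 374 and 279, and TFBS+CGI AntNPC and CGI ESC shared 6, of 279 and 550. The part of these unequal fragments in the results was not tested as a cause. Results that count fragments are also given for own fragments, which leave out a fragment wherever another of the 5 libraries had at least 10 times its reads. This filter is set by differences in reads between the libraries themselves, so a fragment truly lower in 1 library is left out there, and counts of own fragments give no independent support to a difference between libraries. Values for all fragments stand beside them for the shares, the slopes, the relation with genes and the bin comparisons. The filter left 537 of 945 fragments in WT AntNPC, 1507 of 1877 in TFBS AntNPC, 630 of 778 in CGI AntNPC, 526 of 1070 in TFBS+CGI AntNPC and 810 of 999 in CGI ESC. The fragments left out held only 0.947% to 1.86% of the reads beyond 1 Mb in each library, so measures by reads hardly depend on them.

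**Figure D1:**
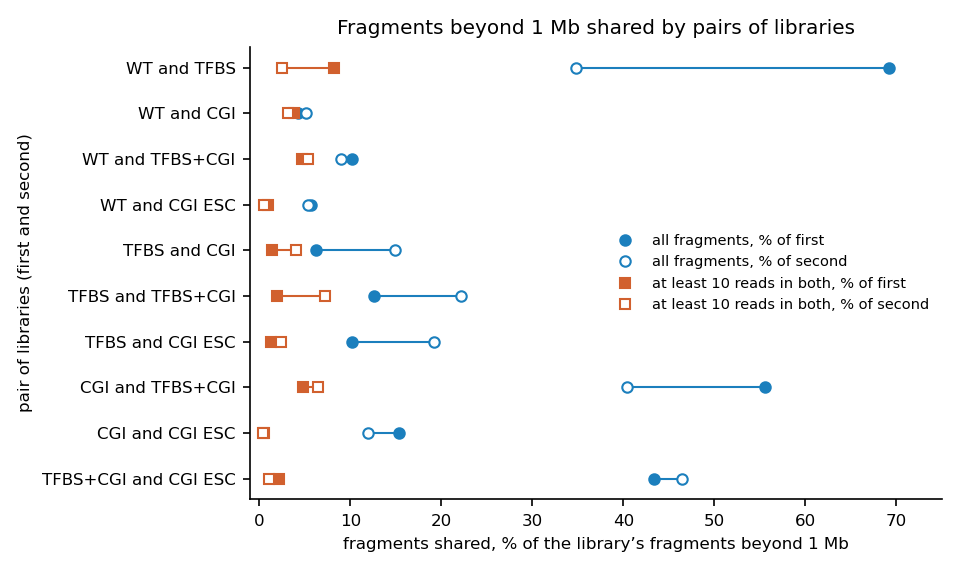
Fragments beyond 1 Mb that 2 libraries share (x axis, % of each library's list) for the 10 pairs of the 5 libraries (y axis), as circles for all fragments and as squares for those with at least 10 reads in both, filled for the share of the first library and open for that of the second. WT and TFBS, CGI and TFBS+CGI, and TFBS+CGI and CGI ESC reach 34.8% to 69.2% of a list among all fragments, and no pair exceeds 8.18% at 10 reads.

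The share of contacts beyond 1 Mb was large in every library once the viewpoint's surroundings were set aside. Of the chromosome 18 reads more than 10 kb from the viewpoint, 41.5% (95% Wilson interval 41.3% to 41.7%) lay beyond 1 Mb in WT AntNPC, 30.3% (30.2% to 30.5%) in TFBS AntNPC, 37.0% (36.7% to 37.3%) in CGI AntNPC, 27.9% (27.7% to 28.1%) in TFBS+CGI AntNPC and 31.9% (31.6% to 32.2%) in CGI ESC. By reads, WT AntNPC was highest and TFBS+CGI AntNPC lowest. All 3 insertion libraries in AntNPC were below WT, and these comparisons share the WT library.

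Counted as fragments, the order changed. Fragments beyond 1 Mb made up 46.5% of those outside 10 kb in WT AntNPC, 45.7% in TFBS AntNPC, 47.7% in CGI AntNPC, 43.5% in TFBS+CGI AntNPC and 40.1% in CGI ESC, and the intervals of WT (44.3% to 48.6%), TFBS (44.2% to 47.2%) and CGI AntNPC (45.3% to 50.1%) overlapped. By own fragments the shares were 55.1%, 44.9%, 54.2%, 46.3% and 42.8% in the same order, with WT and CGI AntNPC above the other 3 libraries. CGI ESC was below CGI AntNPC by each of these measures, at 31.9% against 37.0% of reads and 42.8% (40.6% to 45.0%) against 54.2% (51.3% to 57.1%) of own fragments. As a share of all chromosome 18 reads, viewpoint included, the far contacts were 1.21%, 3.05%, 1.83% and 0.852% in WT, TFBS, CGI and TFBS+CGI AntNPC and 2.96% in CGI ESC, so with that denominator TFBS and CGI AntNPC were above WT and CGI ESC was above CGI AntNPC. In these pooled cells, contacts made in more cells and contacts made more often per cell cannot be told apart.

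**Figure D2:**
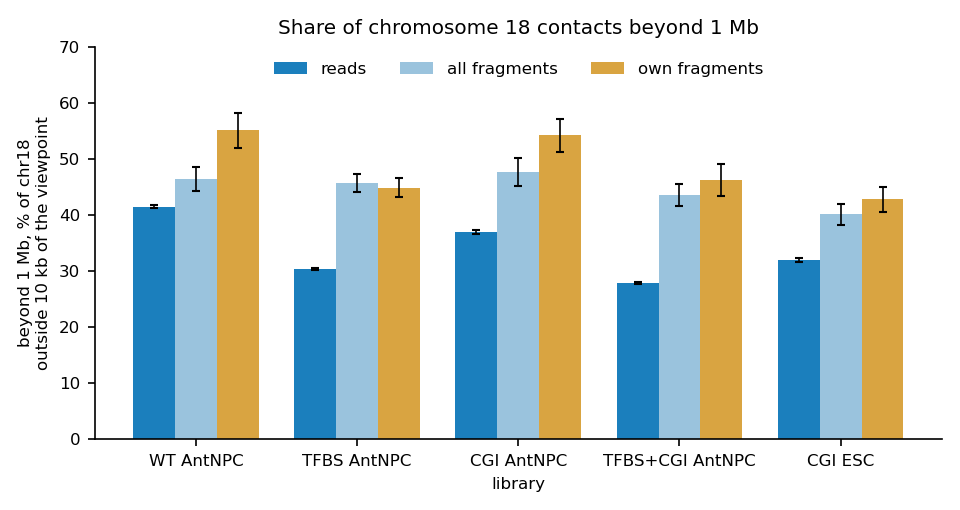
Share of chromosome 18 contacts beyond 1 Mb (y axis, % of reads or fragments more than 10 kb from the viewpoint) in each of the 5 libraries (x axis), with bars for reads, all fragments and own fragments and error bars for 95% Wilson intervals, which cover counting error only. By reads the bars run from 27.9% to 41.5%, while by all fragments they lie between 40.1% and 47.7%.

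The limit of 1 Mb marks no step in the profiles. Between 0.9 and 1 Mb there were 1945 reads in WT AntNPC, 3057 in TFBS AntNPC, 862 in CGI AntNPC, 2378 in TFBS+CGI AntNPC and 1416 in CGI ESC. Between 1 and 1.1 Mb there were 1147, 2809, 1024, 2986 and 1344 in the same order, so reads were lower outside the limit in 3 libraries and higher in CGI and TFBS+CGI AntNPC.

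Contacts fell with distance along the right side of the viewpoint in all 5 libraries, with most of the fall within the first few Mb. The chromosome was divided into bins of 1 Mb by distance from the viewpoint, 78 whole bins to the right (higher coordinates) and 7 to the left, where the chromosome's mapped part ends soon. At 1 to 2 Mb to the right there were 6492 reads in WT AntNPC, 10542 in TFBS AntNPC, 2698 in CGI AntNPC, 7471 in TFBS+CGI AntNPC and 4573 in CGI ESC. At 2 to 5 Mb the density was 1873, 2547, 865, 1563 and 913 reads per Mb, and at 40 to 79 Mb it was 460, 587, 333, 392 and 141. Even the farthest stretch stood above the density on other autosomes, which was 163, 109, 156, 150 and 21.7 reads per Mb: the density at 40 to 79 Mb was 2.81 times that in WT AntNPC, 5.36 in TFBS AntNPC, 2.13 in CGI AntNPC, 2.61 in TFBS+CGI AntNPC and 6.51 in CGI ESC. At 1 to 2 Mb it was 39.8, 96.3, 17.3, 49.8 and 211 times. CGI ESC thus had the highest and CGI AntNPC the lowest chromosome 18 density relative to other autosomes at both distances.

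A power law fitted to the right-hand bins by reads had a slope of -0.93 (SE over bins 0.22) in WT AntNPC, -0.70 (0.12) in TFBS AntNPC, -0.51 (0.13) in CGI AntNPC, -0.91 (0.18) in TFBS+CGI AntNPC and -0.81 (0.16) in CGI ESC. These errors give the scatter of bins about the line within 1 library and are no replicate error. By all fragments the slopes were -0.52 (0.069), -0.48 (0.071), -0.34 (0.057), -0.37 (0.065) and -0.63 (0.083). By own fragments they were -0.47 (0.077), -0.47 (0.083), -0.28 (0.054), -0.32 (0.073) and -0.65 (0.085), each flatter than by reads. CGI AntNPC had the flattest slope by all 3 measures. CGI ESC was steepest by all and by own fragments but not by reads, where WT and TFBS+CGI AntNPC had slopes of larger size. Between the libraries labelled with the CpG island insertion alone, 1 to 2 Mb to the right held 15.9% of the reads beyond 1 Mb in CGI ESC and 6.87% in CGI AntNPC, whereas 40 to 79 Mb held 19.2% and 33.1%. Going right from 1 Mb, 50% of the reads were reached by 15 Mb in CGI ESC and by 30 Mb in CGI AntNPC, with the other libraries at 19 to 24 Mb.

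Both sides of Gata6 were contacted. Within 1 to 8 Mb the right side had 18174 reads and the left 13822 in WT AntNPC, a ratio of 1.31. The ratio was 1.47 in TFBS AntNPC, 1.08 in CGI AntNPC, 1.40 in TFBS+CGI AntNPC and 1.24 in CGI ESC. By own fragments it was 1.06, 1.42, 1.16, 1.28 and 1.29, so the right side was ahead in every library by both measures.

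**Figure D3:**
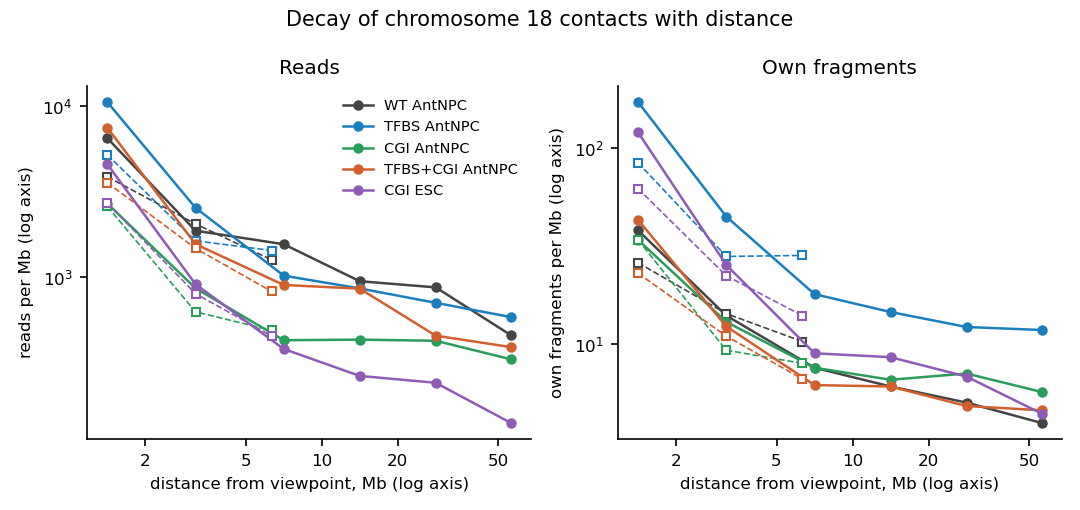
Density of contacts (y axes, log scale; left panel reads per Mb, right panel own fragments per Mb) against distance from the viewpoint (x axes, Mb, log scale) in the 5 libraries, each point a distance class drawn at its geometric centre, with solid lines and circles for the right side and dashed lines and open squares for the left. From 1 to 2 Mb to 40 to 79 Mb the reads per Mb fall from 6492 to 460 in WT AntNPC and from 4573 to 141 in CGI ESC.

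Single far contacts were mostly seen in 1 library. Of 2471 different fragments beyond 1 Mb with at least 10 reads in some library, 2394 (96.9%) reached 10 reads in 1 library, 64 in 2, 4 in 3, 9 in 4 and none in all 5. Within 1 Mb, 64.9% of 2692 such fragments reached it in 1 library and 15 did so in all 5. CGI AntNPC and CGI ESC had 2 far fragments in common at 10 reads, of 374 and 550, against 147 near ones, of 485 and 958. WT AntNPC and CGI ESC had 3, of 318 and 550. The median far fragment had 2 reads in WT and TFBS+CGI AntNPC, 7 in CGI AntNPC, 14 in CGI ESC and 15 in TFBS AntNPC, and the 10 most read held 19.9% of the far reads in WT AntNPC, 13.4% in TFBS+CGI, 10.5% in CGI, 5.08% in TFBS AntNPC and 5.39% in CGI ESC.

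Of the most read far fragments, most had their reads in 1 library and a few did not. In WT AntNPC the tallest, chr18:7857772-7858021, lay 10.8 kb from Wac, which encodes a WW-domain adaptor protein, and had 2540 reads there, 13 in TFBS AntNPC and none in the other 3 libraries. The next, chr18:16696419-16696494 within Cdh2, the gene of N-cadherin, had 2230 reads in WT AntNPC, 16 in TFBS AntNPC, 3 in CGI ESC and none in the rest. The third, chr18:27660627-27660772, had 2095 reads in WT and 19 in TFBS AntNPC, and lay 1906 kb from the nearest protein-coding gene. Each of these tall WT fragments thus had reads in TFBS AntNPC at a level under 1 in 100 of that in WT.

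In TFBS AntNPC the tallest far fragment lay within Dsc3, a desmosomal cadherin gene, at chr18:19967483-19967517, with 666 reads there and 12 in WT. In CGI AntNPC the tallest lay within Armc4, a gene of motile cilia, at chr18:7101109-7101837, with 489 reads and none in any other library. A fragment within Lama3, which encodes a laminin chain of basement membranes, at chr18:12433379-12433984, had 476 reads in CGI AntNPC, 15 in CGI ESC, 9 in TFBS+CGI and 1 in TFBS AntNPC. The tallest of CGI ESC also lay within Lama3, at chr18:12534910-12535066, with 195 reads there and 256 in TFBS+CGI AntNPC. It was followed by chr18:12217153-12217976 in Npc1, a gene of cholesterol export from lysosomes, with 166 reads, and by chr18:12794768-12794930 in Osbpl1a, a gene of the oxysterol-binding protein family, with 159. All 3 tall ESC fragments lay 1.16 to 1.74 Mb from the viewpoint, while the tallest of TFBS+CGI AntNPC, chr18:29088372-29088607, lay at 18.03 Mb. That fragment had 1317 reads in TFBS+CGI, 448 in CGI, 107 in TFBS and 8 in WT AntNPC and 12 in CGI ESC, and the third of TFBS AntNPC, chr18:3886606-3887042, had 523 there, 424 in TFBS+CGI, 179 in CGI, 4 in WT AntNPC and 1 in CGI ESC.

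A few far fragments did recur. In all, 13 reached 10 reads in 3 or more libraries, of which 8 did so in all 4 AntNPC libraries and 1, chr18:29088372-29088607, in 3 of these and CGI ESC. The 8 were 0.412% of the 1942 far fragments with at least 10 reads in some AntNPC library. The same share was higher within 1 Mb, at 1.05%, and on other chromosomes, at 1.21%. Those 8 lay 10.3 to 71.4 Mb to the right, and had 0 reads in CGI ESC in 4 cases and at most 4 in the others. A count of 0 in CGI ESC allows up to 0.0104% of its far reads. The fragment chr18:21372277-21372330, 72.1 kb from the nearest gene, Garem1, was the most even, with 58, 63, 65 and 76 reads in WT, TFBS, CGI and TFBS+CGI AntNPC and 1 in CGI ESC. The fragment chr18:69722516-69723473, 34.5 kb from Tcf4, had 474, 25, 55 and 94 reads in the 4 AntNPC libraries and 0 in CGI ESC. Tcf4 encodes a basic helix-loop-helix factor of the nervous system.

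The fragment chr18:77438982-77439652 within Loxhd1, a gene of hair cell function, had 232, 27, 178 and 14 reads in the AntNPC libraries and 1 in CGI ESC. The fragment chr18:82433248-82433727, 26.5 kb from the galanin receptor gene Galr1, had 485, 45, 38, 50 and 2. The fragment chr18:75808378-75808596, 11.6 kb from Zbtb7c, had 89, 16, 12, 55 and 0. The other 3 were chr18:62110526-62111358 (69, 34, 12, 30 and 0 reads), chr18:66383668-66384330 (54, 35, 60, 32 and 0) and chr18:73190491-73190752 (13, 109, 109, 598 and 4). None of the 13 recurrent fragments had a read in any of the 8 libraries of other viewpoints. Such reads were rare for far fragments in general. They were found for 11 of 2394 (0.459%) with at least 10 reads in 1 library and 1 of 64 in 2. The absence in 13 fragments therefore does not set the recurrent ones apart. These fragments were picked for their reads in the AntNPC libraries, and the genes beside them are named after their values were seen.

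Of 2279 near fragments with at least 10 reads in some AntNPC library, 24 reached it in all 4, and 15 of these also did in CGI ESC, with a median of 47 reads there. On other chromosomes 163 of 13431 did so in all 4 AntNPC libraries, of which 12 also reached 10 reads in CGI ESC and 79 had none, with a median of 1. CGI ESC differs from the 4 AntNPC libraries in cell state and in its viewpoint label, and held the fewest reads, which cannot be told apart here.

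**Figure D4:**
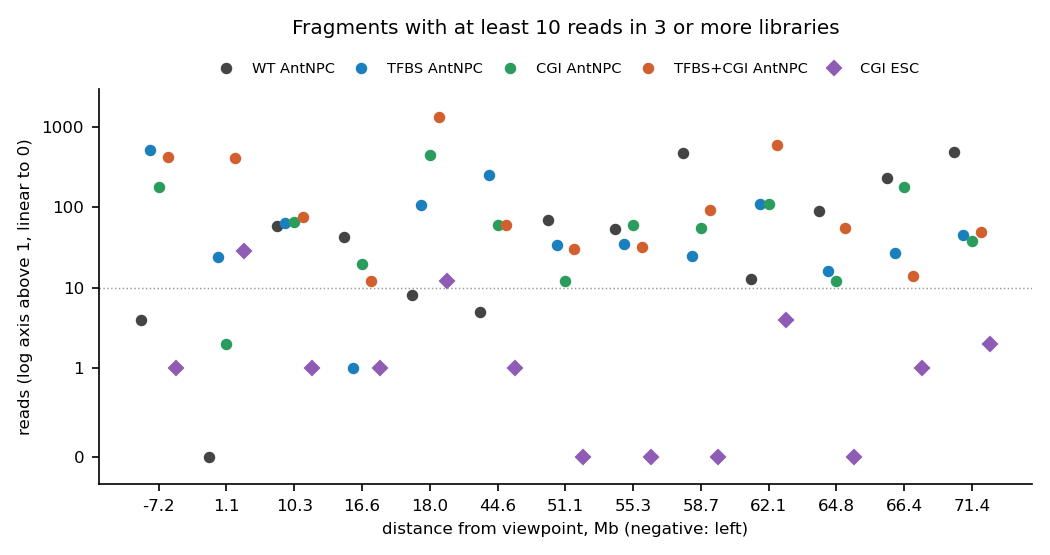
Reads (y axis, log scale above 1 and linear to 0) of the 13 fragments beyond 1 Mb with at least 10 reads in 3 or more of the 5 libraries, ordered by distance from the viewpoint (x axis, Mb, negative to the left), with circles for the 4 AntNPC libraries, diamonds for CGI ESC and a dotted line at 10 reads. From 51.1 to 71.4 Mb the AntNPC libraries lie between 12 and 598 reads and CGI ESC between 0 and 4.

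Own fragments beyond 1 Mb covered nearly the whole chromosome at the scale of 1 Mb. Own fragments were found in 84 of 85 bins in WT AntNPC, 85 in TFBS AntNPC, 85 in CGI AntNPC, 83 in TFBS+CGI AntNPC and 84 in CGI ESC, with a median of 5, 13, 6, 5 and 6 per bin. At 100 kb the cover was partial: of 850 windows, own fragments lay in 362 (42.6%), 593 (69.8%), 425 (50.0%), 356 (41.9%) and 394 (46.4%). The order of the libraries follows their numbers of own fragments except for CGI and CGI ESC. Fragments of the 8 libraries of other viewpoints together lay in 677 windows (79.6%), so cover alone does not mark contacts of Gata6. From 9.51% (CGI ESC) to 27.4% (TFBS+CGI AntNPC) of the own fragments beyond 1 Mb had 1 read.

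Windows read in 3 or more libraries held genes more often than those read in 2 or fewer, with no steady increase beyond that. These shares are not adjusted for distance. Most windows read in all 5 libraries lay within 8 Mb of the viewpoint, and the part of distance was not tested. A protein-coding gene overlapped 58.7% of all 850 windows. It did so in 51.7% (30) of the 58 windows with own fragments in no library, 48.7% of the 156 with own fragments in 1 library, 52.6% of the 213 in 2, 65.9% of the 214 in 3, 68.3% of the 139 in 4 and 64.3% (45) of the 70 in all 5. In each library, genes overlapped more of the windows with own fragments than of those without, from 59.5% against 57.9% in CGI AntNPC to 63.4% against 47.9% in TFBS AntNPC. The 8 libraries of other viewpoints together gave 60.0% against 53.8%. Of the 70 windows read in all 5 libraries, the farthest were at 71.0 Mb, with no gene, at 69.6 Mb, over Nfatc1 and Atp9b, at 67.1 Mb, over the urea transporter gene Slc14a2, at 66.7 Mb, over Haus1, Atp5a1 and Pstpip2, at 59.6 Mb, with no gene, and at 58.6 Mb, over Tcf4.

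Bins with more genes had more contacts than the fitted fall with distance gave. Over the 85 bins, Spearman's rho between the number of protein-coding genes and the reads over the fit was 0.27 in WT AntNPC, 0.52 in TFBS AntNPC, 0.35 in CGI AntNPC, 0.35 in TFBS+CGI AntNPC and 0.56 in CGI ESC. By all fragments it was 0.47, 0.56, 0.34, 0.62 and 0.63, and by own fragments 0.38, 0.52, 0.32, 0.41 and 0.57. These are descriptions over bins that share 1 library's depth and the density of restriction fragments, so no p-value is given. Without the clustered protocadherin genes, which are many small or nested genes in 1 stretch, the values by reads were 0.27, 0.51, 0.35, 0.35 and 0.55.

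Such a relation was also present for chromosome 18 fragments of other viewpoints, where no distance to Gata6 is involved. Their fragments together gave a rho of 0.37 with genes per bin, from -0.18 for a Gria1 library to 0.58 for the Six2 promoter library of WT cells. By reads, WT, CGI and TFBS+CGI AntNPC were below 0.37, and by all or own fragments only CGI AntNPC was. The density of restriction fragments and the share of each bin that can be mapped were not measured here, so their part was not tested. The 5 own-fragment profiles over the fit, set against the profile of the other viewpoints, had a rho of 0.18, 0.21, 0.11, 0.07 and 0.10, and that of the profiles not divided by the fit 0.41, 0.44, 0.33, 0.30 and 0.38.

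By gene class, the 22 bins with 0 or 1 gene had on average 5.05 own fragments per bin in WT AntNPC (SD between bins 4.15), the 47 bins with 2 to 9 genes had 6.49 (4.81), and the 16 bins with 10 or more had 7.44 (8.45). The same classes had 13.5, 16.5 and 26.7 in TFBS AntNPC, 6.5, 7.23 and 9.06 in CGI AntNPC, 4.86, 5.81 and 9.06 in TFBS+CGI AntNPC, and 6.14, 9 and 15.6 in CGI ESC. With all bins kept, the mean was higher with each gene class in every library. In the gene-rich class the SD between bins was 8.45, 38.9, 7.04, 9.43 and 28.1, with libraries ordered as above. Each of these exceeded the differences between that library's class means. The bin at 1 to 2 Mb to the right, which has 10 genes, is 1 of the 16 gene-rich bins. It held 38, 171, 34, 43 and 120 of that class's 119, 427, 145, 145 and 250 own fragments. With its counts taken out, the gene-rich mean lies below that of the middle class in WT AntNPC and CGI ESC. It stays above the middle class in TFBS, CGI and TFBS+CGI AntNPC. The rise into the gene-rich class in every library thus depends on this bin. Divided by the fitted fall with distance, the gene-rich class had a median of 1.08 against 0.775 in the poorest class in WT AntNPC, 1.65 against 0.727 in TFBS, 1.30 against 0.907 in CGI, 1.27 against 0.799 in TFBS+CGI AntNPC and 1.51 against 0.689 in CGI ESC. In WT AntNPC the middle class, at 1.14, was above the gene-rich one. In the libraries of other viewpoints the 3 classes had 17.9, 19.6 and 26.7 fragments per bin.

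**Figure D5:**
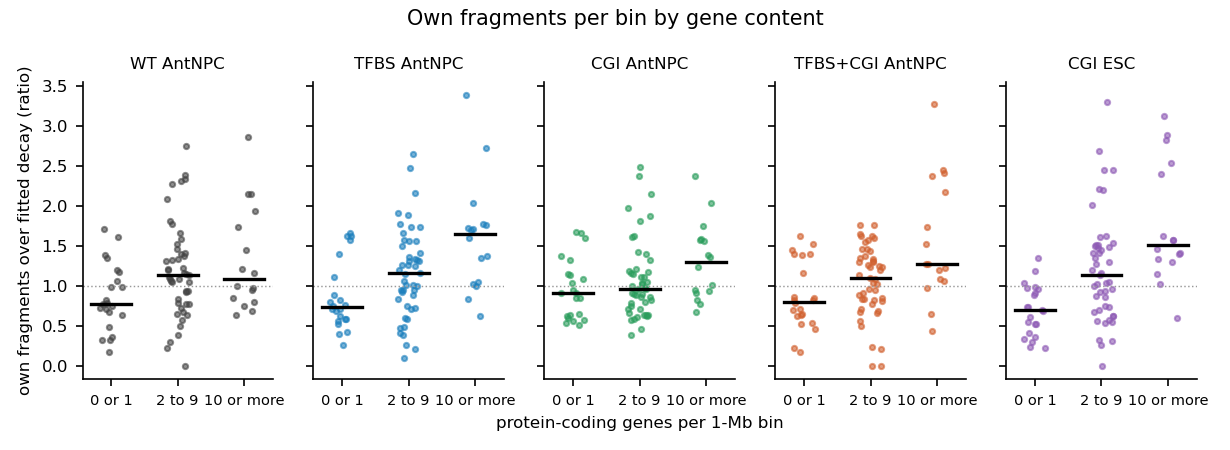
Own fragments per 1-Mb bin divided by the fitted fall with distance (y axis, ratio, dotted line at 1) for bins with 0 or 1, 2 to 9, and 10 or more protein-coding genes (x axis), 1 panel per library, with a point for each of the 85 bins and a bar at the class median. The class medians go from 0.689 to 1.51 in CGI ESC and from 0.907 to 1.30 in CGI AntNPC, and the points of the classes overlap in every panel.

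Own fragments lay within protein-coding genes in 44.9% of cases in WT AntNPC (95% Wilson interval 40.7% to 49.1%), 45.6% (43.1% to 48.1%) in TFBS AntNPC, 41.4% (37.6% to 45.3%) in CGI AntNPC, 45.1% (40.9% to 49.3%) in TFBS+CGI AntNPC and 48.3% (44.8% to 51.7%) in CGI ESC. Genes span 37.5% of the sequence beyond 1 Mb, and the fragments of other viewpoints lay in them in 38.7% (36.4% to 41.0%) of cases. All 5 libraries were above both values. The intervals of TFBS AntNPC and CGI ESC lay above that of the other viewpoints, while the remaining intervals overlapped it. These shares are not adjusted for distance. The bin at 1 to 2 Mb to the right, with 10 genes, held 38, 171, 34, 43 and 120 own fragments, with libraries ordered as above. Their totals beyond 1 Mb were 537, 1507, 630, 526 and 810. Shares without this bin were not computed, so the part of distance in the excess was not tested.

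Several stretches stood above or below the fit in all 5 libraries. By reads 16 of the 85 bins (18.8%) were above it in every library, with a mean of 13.1 genes and a median of 9.5. That mean includes the bin of the clustered protocadherins, with 67 genes. Below it in every library were 8 bins (9.41%), with a mean of 1.88 and a median of 2. By own fragments these were 9 bins each, with means of 8.67 and 1.33 genes. The 22 bins above it in 4 libraries had a mean of 10.1. The bins above the fit by both measures were 4. The bin at 1 to 2 Mb to the right holds Riok3, Rmc1, Npc1, Ankrd29, Lama3, Ttc39c, Cabyr, Osbpl1a, Impact and Hrh4 and had 38, 171, 34, 43 and 120 own fragments (WT, TFBS, CGI and TFBS+CGI AntNPC, then CGI ESC). The bin at 3 to 4 Mb, with Ss18, Psma8 and Taf4b, had 14, 42, 13, 13 and 25, which was 1.08 to 1.31 times the fit. By reads it was close to the fit, at 1.0001 (TFBS+CGI AntNPC) to 1.42 times. The bin at 24 to 25 Mb, with 17 genes such as Ctnna1 (alpha-catenin) and Matr3 (a nuclear matrix protein), had 6, 21, 9, 9 and 7. The bin at 53 to 54 Mb, with St8sia3, Onecut2, Fech, Nars, Atp8b1 and Nedd4l, had 8, 24, 13, 5 and 9, which was 1.25 to 2.65 times the fit.

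The bins below the fit by both measures were also 4, and held few genes. Those at 2 to 3 Mb to the left and at 17 to 18 Mb to the right hold no protein-coding gene. The bin at 22 to 23 Mb holds Camk4, Stard4, Nrep and Epb41l4a. The bin at 48 to 49 Mb, with Minar2 and Chsy3, had only 2, 58, 22 and 0 reads in WT, TFBS, CGI and TFBS+CGI AntNPC and 1 in CGI ESC. A count of 0 in TFBS+CGI AntNPC allows up to 0.00498% of its far reads.

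The bins farthest over the fit by reads in WT AntNPC were not those of the other libraries. The bin at 72 to 73 Mb, with Tshz1, a zinc finger gene of development, had 1317 reads in WT AntNPC, 8.43 times the fit, and 309, 48, 102 and 42 in the others. The bin at 43 to 44 Mb, with Zfp608, had 1984 reads in WT (8.19 times the fit), 568, 241 and 1110 in the AntNPC insertion libraries and 12 in CGI ESC. The bin at 58 to 59 Mb, with Tcf4 and Ccdc68, had 1334 in WT (7.11 times), 749, 83, 107 and 192. In own fragments the same bins held 4, 6 and 3 in WT AntNPC, at 1.38, 1.61 and 0.93 times the fit, so few fragments carried their reads. The bins with fewest reads over the fit in WT AntNPC were those at 17 to 18, 48 to 49 and 61 to 62 Mb, with 4, 2 and 2 reads. The last of these had 342 reads in CGI AntNPC.

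Genes of the neural programme and of other lists were then followed one by one, each with 5 kb on both sides of its span. Over all 501 protein-coding genes beyond 1 Mb, gene spans held 7.36 own fragments per Mb in WT AntNPC, 21.1 in TFBS AntNPC, 8.04 in CGI AntNPC, 7.41 in TFBS+CGI AntNPC and 12.2 in CGI ESC. Densities per Mb of gene span are not adjusted for distance, and the lists lie at unlike distances. The median was 30.9 Mb over all genes, 51.6 Mb for developmental regulators, 17.5 Mb for neural genes and 37.7 Mb for widely expressed genes. Own fragments lay in 53 of the 501 genes in all 5 libraries and in 99 genes in none. The median gene had 0 reads in WT AntNPC, CGI AntNPC and CGI ESC, so in those libraries a gene with any reads was above the median, and 97 of 501 genes were above it in all 5.

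The 14 developmental regulators had 9.98, 24.7, 6.46, 7.63 and 18.2 own fragments per Mb of span, above all genes in 4 of the 5 libraries and below them in CGI AntNPC. Without Zfp521, the list member closest to the viewpoint, they had 6.39, 19.9, 5.68, 7.10 and 12.8, above all genes only in CGI ESC. The values for all genes still hold Zfp521 and the other genes near the viewpoint. Of these 14 genes, 5 were above the median gene in all 5 libraries, and 4 had own fragments in all 5. Zfp521, a zinc finger gene of early neural development 2.78 Mb from the viewpoint, had 311, 992, 357 and 42 reads in WT, TFBS, CGI and TFBS+CGI AntNPC and 512 in CGI ESC, from 8, 14, 3, 3 and 13 own fragments. Tcf4, at 58.5 Mb, had 855, 313, 2, 9 and 192 reads, from 1, 5, 1, 1 and 5 own fragments. The tendon regulator Mkx, to the left, had 485, 304, 2, 83 and 50 reads. Onecut2, a homeobox gene, had 28, 267, 4, 1 and 124, and the glucocorticoid receptor gene Nr3c1 had 25, 180, 3, 2 and 70. As reads over the fitted density of each library, Zfp521 had 0.409, 1.26, 1.42, 0.069 and 1.78, and Tcf4 had 12.8, 2.54, 0.027, 0.163 and 6.56.

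The 12 neural genes had 5.11, 9.54, 5.45, 5.79 and 5.45 own fragments per Mb, below all genes in every library. This depends on Dcc, which spans 1108 kb and held 1, 4, 4, 1 and 3 own fragments. With Dcc taken out, the list lies above all genes in WT and TFBS+CGI AntNPC. It stays below them in TFBS and CGI AntNPC and in CGI ESC. The values for all genes still hold Dcc. With spans of 2.94 Mb in all, 6 of the 12 had own fragments in all 5 libraries and were above the median gene in all 5. These were Cdh2 with 2231, 156, 182, 684 and 130 reads, Nol4 with 2020, 220, 2, 226 and 142, Dtna (dystrobrevin alpha) with 447, 183, 99, 908 and 163, the netrin receptor gene Dcc with 702, 133, 207, 15 and 29, the RNA-binding protein gene Celf4 with 69, 238, 11, 78 and 92, and Asxl3 with 81, 77, 96, 359 and 5. In WT AntNPC 2230 of the 2231 reads of Cdh2 came from 1 fragment. As reads over the fitted density of each library, WT AntNPC was highest in Nol4 (7.58), Cdh2 (6.93) and Dcc (3.49), TFBS+CGI AntNPC in Dtna (4.37) and Asxl3 (2.94), and CGI ESC in Celf4 (1.26), so no library led throughout. Syt4 and Galr1 had no read in any of the 5.

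Of the 15 listed widely expressed genes, 14 lie beyond 1 Mb (Rock1 does not). They had 9.58, 32.3, 8.39, 15.6 and 26.4 own fragments per Mb, above all genes in each library. This rests on Npc1, the listed gene closest to the viewpoint: without it the values were 5.14, 17.995, 6.43, 8.997 and 10.3, above all genes only in TFBS+CGI AntNPC. The values for all genes still hold Npc1. Of the list, 2 of 14 were above the median gene in all 5. Npc1, at 1.16 Mb, had 1153, 911, 6 and 676 reads in the AntNPC libraries and 643 in CGI ESC, from 4, 13, 2, 6 and 14 own fragments. Ctnna1, at 24.1 Mb, had 941, 307, 167, 362 and 29 reads.

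The 9 desmosomal cadherin genes, at about 9 Mb, held 1, 8, 4, 2 and 4 own fragments in all, and none of them had own fragments in all 5 libraries. The 57 clustered protocadherin genes, cell adhesion genes of neurons at about 26 Mb, lie in nested and overlapping spans of 0.661 Mb together. These spans held 2, 7, 4, 6 and 9 own fragments, or 3.02, 10.6, 6.05, 9.07 and 13.6 per Mb, below all genes in WT, TFBS and CGI AntNPC and above them in TFBS+CGI AntNPC and CGI ESC. Because 1 fragment can lie in many of these genes, the 22 of 57 above the median gene in all 5 libraries are not separate observations.

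Profiles of reads over the 85 bins agreed moderately between WT AntNPC and the insertion libraries. Spearman's rho of reads per bin was 0.46 for WT and TFBS AntNPC, 0.23 for WT and CGI, 0.40 for WT and TFBS+CGI, and 0.45 for CGI AntNPC and CGI ESC. Divided by each library's fitted fall with distance, the values were 0.25, 0.12, 0.09 and 0.37, each below the undivided value, with CGI AntNPC and CGI ESC keeping most of theirs. By all fragments rho was 0.86, 0.64, 0.74 and 0.61. By own fragments it was 0.69, 0.57, 0.52 and 0.45, and over the fit 0.47, 0.41, 0.26 and 0.20. The points are bins that share the fall with distance, the density of restriction fragments and the depth of each library, and the values have no p-value. CGI ESC had a rho of 0.45 with CGI AntNPC, which is labelled with the same insertion. With WT, TFBS and TFBS+CGI AntNPC it had 0.51, 0.72 and 0.56. Over the fit the value was 0.37 with CGI AntNPC, and 0.22, 0.53 and 0.37 with WT, TFBS and TFBS+CGI AntNPC. By own fragments over the fit it was 0.20 with CGI AntNPC, and 0.34, 0.43 and 0.42 with the others. The value with CGI AntNPC was thus the lowest by reads and by own fragments over the fit, but not by reads over the fit.

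The bins that differed between libraries were counted as those past 2-fold in their share of the far reads. Between TFBS and WT AntNPC 48 of 85 bins (56.5%) were past 2-fold, 29 (34.1%) higher and 19 (22.4%) lower in TFBS. Between CGI and WT it was 46 of 85 (54.1%), 28 (32.9%) higher and 18 (21.2%) lower, and between TFBS+CGI and WT 51 of 84 (60.7%), 25 (29.8%) higher and 26 (31%) lower. These comparisons share the WT library. Between CGI ESC and CGI AntNPC it was 45 of 84 (53.6%), 14 (16.7%) higher and 31 (36.9%) lower in ESC. By reads, more than 50% of the bins were thus past 2-fold in each of these 4 comparisons. The log2 ratios of the bins had an SD of 2.41, 2.51, 2.77 and 1.88 in the same order, and a median of 0.34, 0.24, 0.14 and -0.27.

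On the deposited RPM scale, which counts all reads of a library with the viewpoint's own, the same bins split as 50 higher and 4 lower for TFBS, 38 and 14 for CGI, 19 and 31 for TFBS+CGI and 36 and 14 for CGI ESC over CGI AntNPC. That scale moved the median log2 ratio to 1.62, 0.68, -0.35 and 0.59, so the direction for CGI ESC and for TFBS+CGI AntNPC flips with it. Counted as fragments, fewer bins were past 2-fold: 5 of 85 (5.88%) for TFBS, 15 of 85 (17.6%) for CGI and 11 of 84 (13.1%) for TFBS+CGI over WT, and 22 of 84 (26.2%) for CGI ESC over CGI AntNPC, of which 4 (4.76%) were higher and 18 (21.4%) lower in ESC. By own fragments the numbers were 21 of 84 (25%), 21 of 84 (25%), 22 of 82 (26.8%) and 30 of 84 (35.7%), the last with 7 (8.33%) higher and 23 (27.4%) lower in ESC.

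Between CGI ESC and CGI AntNPC the direction of the bins changed with distance. Within 1 to 8 Mb on both sides, 10 of 14 bins held a larger share of the far reads in ESC, with a median log2 ratio of 0.38. At 8 to 40 Mb 14 of 32 did, with a median of -0.37, and at 40 to 79 Mb 13 of 38, with a median of -0.86. By all fragments the bins higher in ESC numbered 10 of 14, 13 of 32 and 11 of 38, with medians of 0.38, -0.12 and -0.81. By own fragments they numbered 9 of 14, 13 of 32 and 7 of 38, with medians of 0.41, -0.36 and -0.69. Single bins departed from this at each distance: within 1 to 8 Mb the ratios by reads ran from -1.04 to 2.33, and at 40 to 79 Mb from -7.97 to 4.14.

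The bin at 1 to 2 Mb to the right, with Lama3 and Npc1, had a log2 ratio of 1.21 by reads and 1.46 by own fragments (120 in CGI ESC and 34 in CGI AntNPC), and the bin of Zfp521 at 2 to 3 Mb had 1.03 and 1.04. The bin at 3 to 4 Mb to the left, with Armc4, Mpp7 and Wac, had -0.15 by reads and 1.27 by own fragments, and that of Tshz1 at 72 to 73 Mb had 0.26 and -3.36, so for these the direction depends on the measure. The bin at 63 to 64 Mb (9 genes, among them Mbd1 and Myo5b) had -3.54 and -3.36, with 1 own fragment in CGI ESC and 8 in CGI AntNPC. The bin of Rax, Malt1 and Zfp532 at 54 to 55 Mb went the other way, with 2.52 and 1.64, and 8 and 2 own fragments. These bins were named after their values were seen, and at such counts a difference of a few fragments sets the ratio.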

How the data were processed

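The authors deposited 1 track per library, which gives each restriction fragment a value in RPM (reads scaled to library depth). The submitters' processing notes name HISAT2 and mm10. Neither its version nor any filter on reads is stated in the sources used here. All values were whole multiples of the smallest one within 0.1 (100% in each of the 13 libraries), so reads were recovered by division. With 1 library per condition no count test was run. Of the 28 samples listed, 15 were not analysed here.

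Shares have 95% Wilson intervals. Bins were 1 Mb wide, 85 in all; the partial end bins entered shares only. The fall with distance was a least-squares line of log10 counts on log10 distance, leaving out bins with 0; slopes used the right side, and values over the fit both sides. Genes were the 511 protein-coding RefSeq genes of chromosome 18 (GRCm38.p6), 501 of them beyond 1 Mb, placed in bins by midpoint. The slope fit, the relation with genes and the Wilson interval were run on simulated counts. Those counts held no uneven amplification of single fragments and no fragments shared between libraries. The counting of far shares and the agreement between libraries were not simulated. Named genes were those at the 3 most read far fragments per library, of the 3 bins most and least over the fit in WT AntNPC, and, from fixed lists, those above the median gene in all 5 libraries; any other gene was named after its values were seen. The members and lists were chosen with earlier results of these data known. Own fragments, the 100-kb windows, recurrence in the AntNPC libraries, lists without Zfp521, Npc1 or Dcc and the distance classes of the ESC comparison were added after the data were examined. Python 3.11.15, pandas 2.3.3, numpy 2.4.6, scipy 1.17.1 and matplotlib 3.10.9 were used.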

Additional observations from a re-analysis of the deposited data

How the results depend on the processing

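Of 135 alternative values over 23 results, 85 stayed within the counting interval, the error of the line or 1.5 times the count, and 50 moved. No single value changed sign, but directions between libraries did: with all chromosome 18 reads as denominator WT AntNPC was below TFBS and CGI AntNPC, and on the deposited RPM scale the bins past 2-fold split 36 higher and 14 lower for CGI ESC over CGI AntNPC in place of 14 and 31. Values are given in the order WT, TFBS, CGI and TFBS+CGI AntNPC, then CGI ESC. The share beyond 1 Mb moved to 1.21%, 3.05%, 1.83%, 0.852% and 2.96% of all chromosome 18 reads, to 45.6%, 33.1%, 39.5%, 30.9% and 34.9% with 25 kb left out, to 36.2%, 29.2%, 34.4%, 25.1% and 30.7% without the 10 most read far fragments, to 46.5%, 45.7%, 47.7%, 43.5% and 40.1% of fragments, and to 55.1%, 44.9%, 54.2%, 46.3% and 42.8% of own fragments. With at least 10 reads it moved to 29.9% in TFBS and 27.6% in TFBS+CGI AntNPC and 31.5% in CGI ESC, and by reads of own fragments to 32.7% in CGI ESC. Slopes by own fragments moved to -0.47 in WT, -0.47 in TFBS and -0.32 in TFBS+CGI AntNPC, and by all fragments to -0.37 in TFBS+CGI AntNPC. The relation with genes moved by all fragments to 0.47 in WT and 0.62 in TFBS+CGI AntNPC. Agreement by all fragments moved to 0.86 (WT and TFBS), 0.64 (WT and CGI), 0.74 (WT and TFBS+CGI) and 0.61 (CGI AntNPC and CGI ESC), by own fragments to 0.69 (WT and TFBS) and 0.57 (WT and CGI), and over the fit to 0.25 (WT and TFBS) and 0.087 (WT and TFBS+CGI). Bins past 2-fold numbered 5 (TFBS), 15 (CGI) and 11 (TFBS+CGI) over WT and 22 (CGI ESC over CGI AntNPC) by all fragments, and 21, 21 and 22 over WT by own fragments. The cause was not tested. No paired analysis was possible because each condition is 1 library. Few reads limit what single far fragments show: the median one had 2 to 15 reads. It was lowest in WT and TFBS+CGI AntNPC, the libraries with most reads. Among own fragments the median was 12.5 to 32 reads.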
